A study of Zea mays with 48 samples.

Results

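The step from 12 h to 24 h of tunicamycin treatment was followed in maize roots by setting the 24 h libraries against the 12 h libraries. Members were chosen by the names of the columns in the deposited count table, which gave 3 libraries at 24 h (I, II and III) and 3 at 12 h, so 6 of the 24 libraries of the series, or 11 of its 47 lane samples used here. Both groups were roots of seedlings of the inbred line B73, germinated on moist filter paper in glass bottles and given tunicamycin at 5 µg/ml, for 24 h and for 12 h. The other groups were tunicamycin for 0, 3, 6, 36 and 48 h and a mock treatment of 48 h. A mock group was used for 48 h alone, so between 12 h and 24 h longer contact with the drug and greater age of the seedling cannot be told apart. All roots came from 1 inbred line and whole roots were extracted, so for any gene fewer cells of a type and less RNA per cell cannot be told apart either. Markers of root tissue could not be checked, because the files give gene identifiers without names and 0 of the 23753 identifiers matched the reference table of 49888 genes.

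Tunicamycin blocks the first step of N-glycosylation, the attachment of sugar chains to proteins that enter the endoplasmic reticulum. Unglycosylated proteins misfold there, and plant cells answer with the unfolded protein response, in which the sensor IRE1 splices the mRNA of the transcription factor bZIP60 and membrane-bound bZIP factors are released to the nucleus. The response raises chaperones and degradation factors of the endoplasmic reticulum early, and under lasting stress it can give way to cell death. The identifiers named below carry no role here for the reason given above.

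The labels are in conflict about these libraries. Sample titles give the lane samples of the 24 h libraries to 0 h or 3 h and those of the 12 h libraries to 48 h or the 48 h mock, whereas the library name in each description matches the column names of the count table and was used. The 24 h libraries held 27217665, 7701856 and 16632659 reads (I, II and III) and the 12 h libraries 28823685, 22436181 and 23609416, within a range of 7701856 to 38577551 over the series. The labels give every library samples on lanes 6 and 7. For library II of 24 h the deposited count equals the reads of its lane 6 sample, and lane 7 was not analysed here. At 24 h, lane 6 thus supplied 34% of the reads of library I, 100% of library II and 12.1% of library III, while at 12 h it supplied 47.8% to 57.1%. Libraries stood apart in both groups. Across 23753 genes the log2 CPM of the 24 h libraries correlated with each other at 0.907 to 0.958, whereas library I of 24 h correlated at 0.981 with library I of 12 h. Libraries I and II of 12 h correlated at 0.993, and library III of 12 h lay nearer to library III of 24 h, with which it correlated at 0.967.

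The lanes of the 24 h libraries also stood apart from each other. Each lane sample was expressed as its deviation, gene by gene, from the mean of the series. The deviations of the lane 6 samples of 24 h libraries I and II correlated at 0.756 across genes, those of II and III at 0.494, and those of I and III at 0.389. The lane 6 and lane 7 samples of the same library correlated at 0.241 for 24 h library I and 0.0657 for 24 h library III, against 0.377 to 0.863 with a median of 0.578 in the 21 libraries of the other groups. The lane 7 sample of 24 h library I correlated at 0.576 with that of 12 h library II and at 0.561 with that of 12 h library I. That of 24 h library III correlated at -0.208 and -0.221 with the same samples, and at 0.376 with that of 12 h library III. With each other, the lane 7 samples of 24 h libraries I and III correlated at 0.0113. These correlations are across genes, which are not independent replicates, and the lane samples differ in depth, from 2020493 reads on lane 6 of 24 h library III to 17966252 on lane 7 of 24 h library I. On lane 6, therefore, the 24 h samples resembled each other more than their own lane 7 partners, and the counts of calls, the named genes and the gene lists are given by lane as well. Levels with both lanes summed hold these lane 6 reads. Given this and the conflict of the labels, whether the lane 6 samples of 24 h hold the material their library names state was not tested, and it bears on every value at 24 h that includes lane 6.

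**Figure D1:**
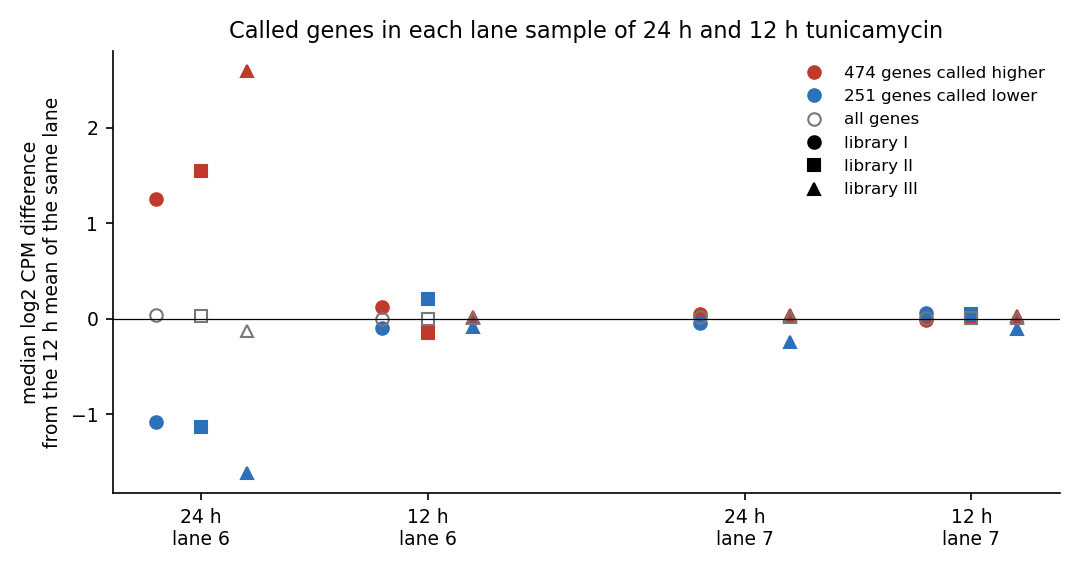
Median log2 CPM difference from the 12 h mean of the same lane (vertical axis), for the genes called higher, the genes called lower and all genes, with 1 point for each lane sample of 24 h and of 12 h and the library as its shape. The 24 h samples of lane 6 reached 1.25, 1.55 and 2.60 for the genes called higher, whereas the 24 h samples of lane 7 were at 0.05 and 0.04.

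With both lanes summed, 474 genes were called higher at 24 h than at 12 h (2.00% of 23753 genes tested) and 251 were called lower (1.06%), at an adjusted p below 0.05 by the quasi-likelihood test of edgeR, adjusted after Benjamini and Hochberg. Without adjustment, 5077 genes had p below 0.05, and the smallest adjusted p was 0.0061401. With upper-quartile scaling in place of TMM the split was 656 higher and 199 lower. The risen genes had a median level of 39.3 CPM at 24 h and 21.4 CPM at 12 h, where CPM is the read count scaled to library size. Their median log2 fold change was 0.88, with the middle 50% between 0.70 and 1.19 and the largest at 6.49. Of them, 181 changed at least 2-fold and 13 at least 4-fold. The fallen genes were at a median of 28.9 CPM at 24 h and 46.9 CPM at 12 h. Their median fold change was -0.69 on the log2 scale, with 35 at least 2-fold and 5 at least 4-fold lower. Across all genes the medians were 17.2 CPM at 24 h and 16.9 CPM at 12 h.

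The count of calls rested on single libraries. Leaving out library I of 24 h gave 870 genes higher and 530 lower, leaving out its library II gave 27 and 11, and leaving out its library III gave 1359 and 989. Leaving out library I of 12 h gave 32 higher and 14 lower, leaving out its library II gave 1 and 4, and leaving out its library III gave 802 and 535. When only the 24 h and 12 h libraries entered the model, edgeR called 0 genes in either direction, while 2392 had an unadjusted p below 0.05.

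Most called genes showed no overlap between the groups. The libraries of 24 h lay wholly above those of 12 h for 438 of the 474 risen genes and wholly below for 243 of the 251 fallen genes, beside 2274 and 2250 among all 23753 genes. The called genes were selected in this same comparison, so these counts are descriptions. Library II of 24 h was the highest of its group for 450 of the risen genes (94.9%) and the lowest for 186 of the fallen genes (74.1%), whereas it was the extreme library in the direction of the fold change for 59.1% of all genes. Relative to the mean of 12 h, the median of the risen genes was 0.57, 1.36 and 0.63 on the log2 scale in 24 h libraries I, II and III, and 0.04, -0.04 and -0.003 in the 12 h libraries. The fallen genes had medians of -0.52, -0.95 and -0.61 in the 24 h libraries and -0.02, 0.10 and -0.08 in the 12 h libraries. All 3 libraries of 24 h thus moved one way in the median, which the choice of these genes in the same comparison largely fixes, and library II moved farthest. On lane 7 alone, against the 12 h mean of that lane, libraries I and III were at 0.05 and 0.04 for the risen genes. For the fallen genes they were at -0.04 and -0.24.

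The called genes also differed in length, which can be read from the deposited table because RPKM scales reads by it. The lengths ran from 132 to 128402 bp, and whether they count introns was not given. The median length was 2801 bp for the risen genes, 4501 bp for the fallen genes and 3513 bp over all genes. Among the 5939 shortest genes 2.05% were called higher and 0.825% lower, and among the 5938 longest genes 0.909% were called higher and 1.55% lower. The median log2 fold change was 0.15, 0.07, -0.02 and -0.14 in 4 equal classes from the shortest to the longest genes, and Spearman's rho of fold change with length was -0.25 across genes. By lane, that rho was -0.37 on lane 6 and 0.27 on lane 7. The direction of the relation to length therefore differed between the lanes. With the trend over length removed from each library, 533 genes were called higher and 335 lower.

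Fitted on lane 6 alone, with all 3 libraries a side, 4637 genes were called higher at 24 h than at 12 h (19.5% of 23739 tested) and 4973 lower (20.9%). Among these were 472 of the 474 risen genes, and 246 of the 251 that fell, with both lanes summed. Those genes were called from sums that include the same lane 6 reads, so their recall on lane 6 is largely fixed by how they were chosen. On lane 7 alone, with libraries I and III of 24 h against the 3 libraries of 12 h, edgeR called 0 genes higher and 0 lower (0% of 23747 tested each), and 1151 had an unadjusted p below 0.05. The median log2 fold change of the risen genes was 1.87 on lane 6 and 0.04 on lane 7, where 276 of 474 kept their sign. That of the fallen genes was -1.25 on lane 6 and -0.14 on lane 7, where 193 of 251 kept their sign. Lane 7 had fewer 24 h libraries but more reads for both of them, 17966252 against 9251413 on lane 6 for library I and 14612166 against 2020493 for library III. The deviations of those lane 7 samples of 24 h correlated at 0.0113, so they did not resemble each other.

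**Figure D2:**
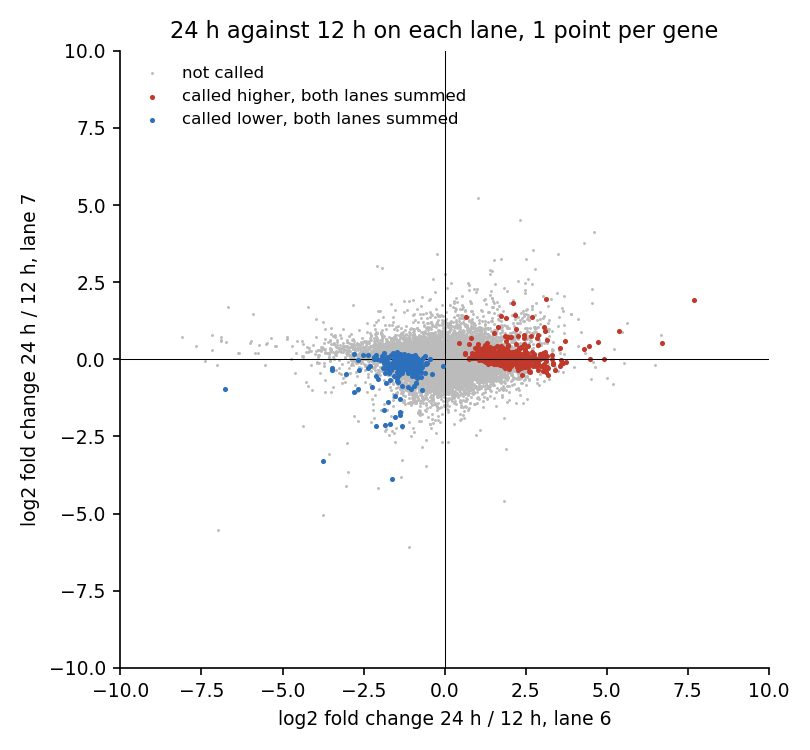
Log2 fold change of 24 h over 12 h on lane 6 (horizontal axis) and on lane 7 (vertical axis), with 1 point a gene and the risen and fallen genes in colour. The risen genes centre on 1.87 on lane 6 and 0.04 on lane 7, and the fallen genes on -1.25 and -0.14.

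The difference between the lanes was then tested itself, in a model chosen after seeing the data that held each library as a block and gave each group its own effect of lane. Library II of 24 h, with lane 6 alone, adds nothing to the lane effect in this model. At 24 h that effect rests on libraries I and III, and III had 2020493 reads on lane 6. In edgeR's quasi-likelihood test, the 24 h minus 12 h difference differed between the lanes for 11217 genes, or 47.2% of the 23752 tested, 5922 of them (24.9% of all) higher on lane 6 and 5295 (22.3%) lower. Of the risen genes, 453 were called higher on lane 6 and 0 lower. Of the fallen genes, 204 were called lower on lane 6 and 2 higher. Since the lane 6 reads took part in choosing both sets, the direction of these counts is a description and no separate support. The same test against the lanes of 12 h called 1 gene for 0 h, 1316 for 3 h, 1916 for 6 h, 0 for 36 h, 463 for 48 h and 30 for the 48 h mock. Without the library term 7283 genes were called for 24 h. Why the 24 h samples of lane 6 differed from those of lane 7 was not tested.

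The 4 named genes are the 2 largest rises and the 2 largest falls among called genes with no overlap and a mean of at least 5 CPM. Zm00001d035664 had the largest rise, with 10.5, 29.1 and 21.1 CPM in 24 h libraries I, II and III, against 3.38, 2.11 and 6.55 CPM in 12 h libraries I, II and III. The lowest 24 h library lay above the highest 12 h library, and library II was again the highest. Its mean was 20.3 ± 9.32 CPM at 24 h and 4.01 ± 2.29 CPM at 12 h (SD, n = 3 each), a log2 fold change of 2.32 with a standard error of 0.43 and an adjusted p of 0.0118 (edgeR, Benjamini-Hochberg). Per length, in a gene of 3703 bp, it had 5.47 RPKM at 24 h and 1.08 RPKM at 12 h. In the other groups it averaged between 3.25 ± 1.51 CPM at 3 h and 5.66 ± 1.21 CPM at 6 h, with 5.20 ± 0.354 CPM at 36 h.

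The lanes of Zm00001d035664 differed widely. On lane 6 it had 21.6, 29.1 and 178.4 CPM in the 24 h libraries, against 3.62, 1.57 and 5.62 CPM in the 12 h libraries. On lane 7 it had 5.23 and 5.76 CPM in 24 h libraries I and III, against 2.99, 2.59 and 7.65 CPM in the 12 h libraries. The groups did not overlap on lane 6 and did overlap on lane 7. The log2 fold change was 4.30 on lane 6 (adjusted p = 1.41e-05, edgeR) and 0.32 on lane 7 (adjusted p = 0.957), and the lane difference was 3.81 with a standard error of 0.53 (adjusted p = 1.63e-06).

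By the rule for named genes, Zm00001d024324 had the second largest rise. It had 9.98, 21.3 and 5.66 CPM in the 24 h libraries, against 3.74, 2.93 and 2.48 CPM in the 12 h libraries. It averaged 12.3 ± 8.05 CPM at 24 h and 3.05 ± 0.636 CPM at 12 h (SD, n = 3 each), with a log2 fold change of 1.98, a standard error of 0.50 and an adjusted p of 0.0402 (edgeR, Benjamini-Hochberg). With a length of 561 bp it had 21.9 RPKM at 24 h and 5.44 RPKM at 12 h, the higher RPKM of the pair that rose. Whether the lengths count introns was not given, so this does not rank the transcripts of the pair. Over the series it averaged 6.92 ± 2.77, 5.90 ± 4.63, 3.40 ± 1.08, 3.05 ± 0.636, 12.3 ± 8.05, 5.18 ± 2.17 and 3.68 ± 0.226 CPM from 0 h to 48 h, and 3.32 ± 0.399 CPM in the 48 h mock. On lane 6 its log2 fold change was 2.85 (adjusted p = 6.71e-05, edgeR), and on lane 7 it was 0.69 (adjusted p = 0.944). The lane difference was 2.10 with a standard error of 0.42 (adjusted p = 0.000152). When lane samples were grouped by sample title, its log2 fold change was -1.03, in a contrast that held no library named 24 h or 12 h.

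Zm00001d012326 had the largest fall among the genes that met the rule for named genes. It had 3.15, 2.33 and 0.672 CPM in the 24 h libraries, against 10.96, 8.02 and 9.31 CPM in the 12 h libraries. The highest 24 h library lay well below the lowest 12 h library, and here library III of 24 h was the lowest. The mean was 2.05 ± 1.26 CPM at 24 h and 9.43 ± 1.47 CPM at 12 h (SD, n = 3 each), with a log2 fold change of -2.19, a standard error of 0.47 and an adjusted p of 0.0209 (edgeR, Benjamini-Hochberg). In a gene of 1647 bp this was 1.25 RPKM at 24 h and 5.73 RPKM at 12 h.

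Unlike the pair that rose, Zm00001d012326 was low on both lanes at 24 h. On lane 7 it had 3.16 and 0.744 CPM in 24 h libraries I and III, against 10.2, 8.47 and 8.02 CPM in the 12 h libraries. On lane 6 it had 3.10, 2.33 and 0 CPM in the 24 h libraries, against 11.4, 7.53 and 10.2 CPM in the 12 h libraries, and the 0 reads of library III allow up to 1.88 CPM at that depth, counting error only. Its log2 fold change was -2.11 on lane 6 (adjusted p = 0.00234, edgeR) and -2.17 on lane 7, where it was not called (adjusted p = 0.813, unadjusted p = 0.000947). The lane difference was -0.27 with a standard error of 0.45 (adjusted p = 0.66). Over the series it averaged 9.06 ± 2.56, 8.48 ± 1.15, 2.87 ± 0.320, 9.43 ± 1.47, 2.05 ± 1.26, 2.10 ± 0.373 and 3.63 ± 0.984 CPM from 0 h to 48 h, and 4.90 ± 2.98 CPM in the 48 h mock. It was thus low at 6 h, when it was called against 0 h (log2 fold change -1.66, adjusted p = 0.0109, edgeR), high at 12 h and low at 24 h.

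By the rule for named genes, Zm00001d042209 had the second largest fall. It had 2.52, 2.04 and 1.40 CPM in the 24 h libraries, against 12.0, 8.06 and 4.51 CPM in the 12 h libraries. It averaged 1.99 ± 0.564 CPM at 24 h and 8.19 ± 3.74 CPM at 12 h (SD, n = 3 each), with a log2 fold change of -2.03, a standard error of 0.43 and an adjusted p of 0.0207 (edgeR, Benjamini-Hochberg). With a length of 966 bp it had 2.06 RPKM at 24 h and 8.48 RPKM at 12 h. On lane 7 it had 1.80 and 1.30 CPM in 24 h libraries I and III, against 8.89, 7.35 and 3.82 CPM in the 12 h libraries, with no overlap. Its log2 fold change was -1.68 on lane 6 (adjusted p = 0.00913, edgeR) and -2.10 on lane 7 (adjusted p = 0.813, unadjusted p = 0.000462), and the lane difference was 0.65 with a standard error of 0.40 (adjusted p = 0.187).

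The 12 h level of Zm00001d042209 also stood between lower ones. It averaged 12.2 ± 6.08, 2.61 ± 0.124, 0.987 ± 0.499, 8.19 ± 3.74, 1.99 ± 0.564, 2.66 ± 0.809 and 1.24 ± 0.254 CPM from 0 h to 48 h (SD, n = 3 each). The 48 h mock, which had no tunicamycin, was at 1.20 ± 0.308 CPM. It was called lower at 3 h than at 0 h (log2 fold change -2.22, adjusted p = 0.00218, edgeR), at 6 h than at 0 h (-3.62, adjusted p = 9.64e-05) and in the 48 h mock than at 0 h (-3.34, adjusted p = 0.00298). Without library II of 24 h, or library I or II of 12 h, none of the 4 named genes was called, with fold changes in the same direction.

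**Figure D3:**
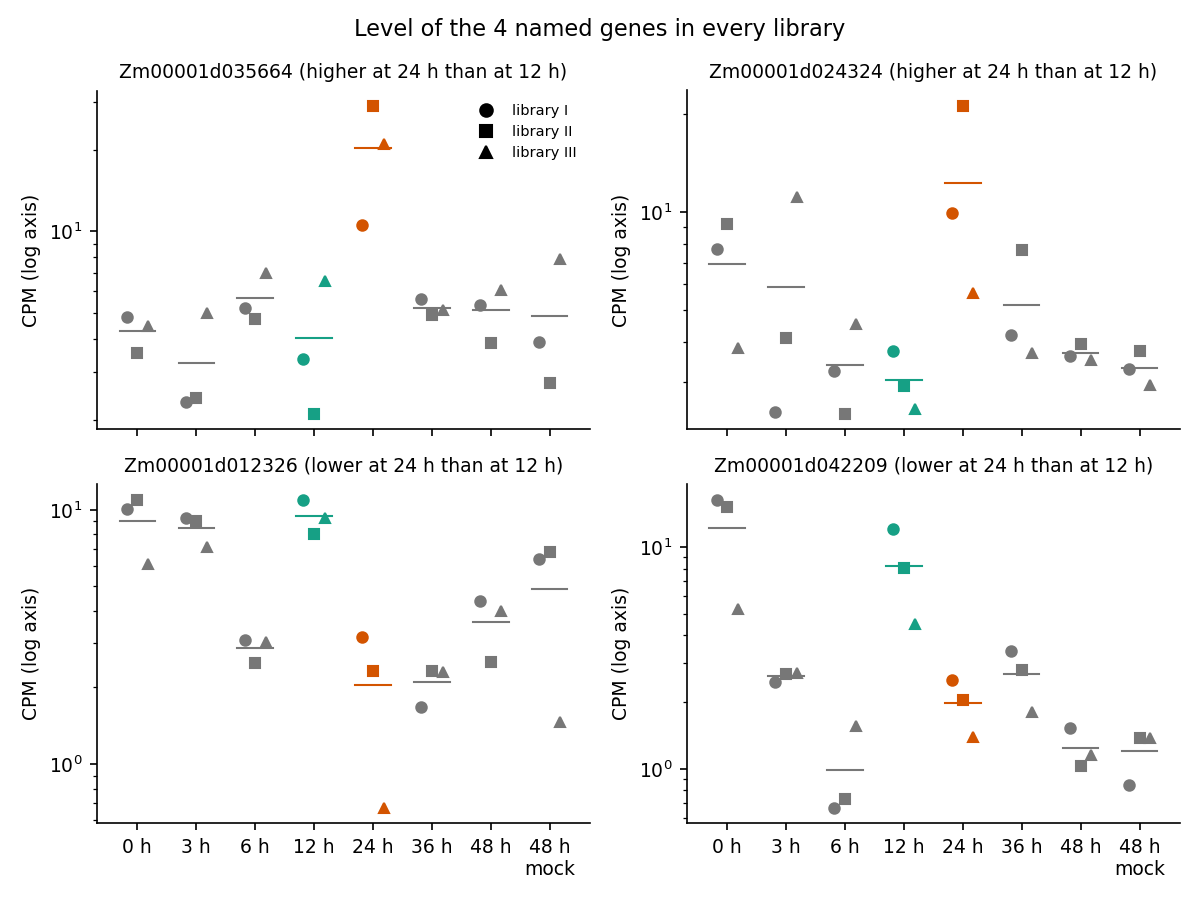
CPM on a log axis of the 4 named genes in every library with both lanes summed, over the 7 treatment times and the 48 h mock, with symbols for libraries I, II and III and a bar for each group mean. The means at 24 h are 20.3 and 12.3 CPM for the genes that rose, and the genes that fell are at 2.05 and 1.99 CPM at 24 h.

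Placed in the whole time course with both lanes summed, the sets called in the step had their extreme median at 24 h. The way they were chosen fixes the side of 24 h against 12 h. Against the other groups it favours an extreme at 24 h but does not fix it. The risen genes had a median of 20.9, 23.7, 25.3, 21.4, 39.3, 21.3 and 23.8 CPM at 0, 3, 6, 12, 24, 36 and 48 h and 23.8 CPM in the 48 h mock. The 24 h libraries ranged from 30.4 to 51.8 CPM in this median. The fallen genes had 46.7, 36.7, 36.6, 46.9, 28.9, 41.9 and 35.8 CPM at those times and 37.9 CPM in the mock, with the 24 h libraries between 22.9 and 33.3 CPM. At 36 h the risen genes were thus near their 12 h level with both lanes summed. On lane 7 alone they stood near it at 24 h too, at 0.05 and 0.04 for libraries I and III. Those are log2 differences from the 12 h mean of that lane, and the fallen genes had -0.04 and -0.24. The 36 h tunicamycin against 48 h mock comparison, whose groups differ in age, called 3 of the risen genes higher (0.633%) and 0 lower. Of the fallen genes it called 2 higher (0.797%) and 3 lower (1.2%), beside 0.674% of all genes higher and 0.320% lower. The medians of that comparison were -0.16 for the risen and 0.13 for the fallen genes on the log2 scale.

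**Figure D4:**
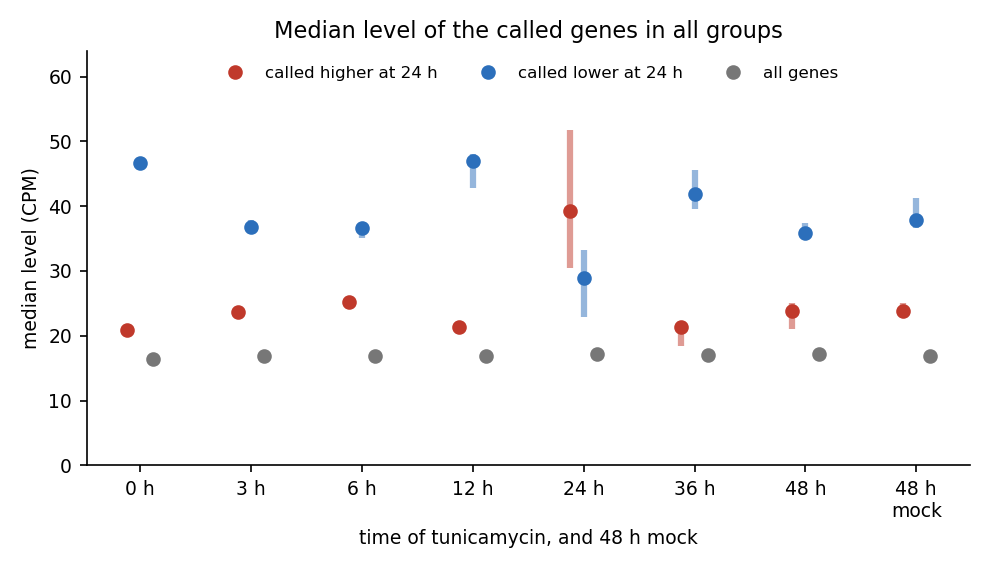
Median CPM of the risen genes, the fallen genes and all genes at the 7 treatment times and the 48 h mock. Both lanes are summed, a point marks the group means and a bar runs from the lowest to the highest library. The risen genes stand at 39.3 CPM at 24 h and at 21.3 CPM at 36 h, and the fallen genes at 28.9 CPM and 41.9 CPM.

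Whether the step differed from one of the same duration later in the treatment was tested with 48 h against 36 h, which shares no library with it. The (24 h minus 12 h) minus (48 h minus 36 h) difference called 0 genes in edgeR, or 0% of 23753, with 2087 at an unadjusted p below 0.05 and a smallest adjusted p of 0.158, while DESeq2's Wald test called 71. Without library I of 24 h edgeR called 47, and without library III of 12 h it called 8. The 48 h against 36 h step alone also gave 0 calls in edgeR. On lane 6 alone, 5855 genes differed between the steps. The 474 and 251 calls of the earlier step are therefore not shown to be particular to it when both lanes are summed.

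Genes that other comparisons called, none of them with a library of 12 h or 24 h, were then read in the step. These lists are described by count and median, with no test, and their calls share with the step the estimate of the spread that all groups gave. Genes called for the drug at equal age, 48 h of tunicamycin against the 48 h mock, were 80 higher (0.337% of genes) and 32 lower (0.135%). Of the 80, 2 were called higher at 24 h than at 12 h and 0 lower, which is 2.5% against 2.00% of all genes. Their median was 68.7 CPM at 24 h and 60.5 CPM at 12 h, and their median log2 fold change 0.08, with 0.18 on lane 6 and -0.04 on lane 7. By library it was 0.12, 0.15 and -0.03 at 24 h and 0.21, 0.20 and -0.43 at 12 h, so the groups overlapped. Leaving out 1 library at a time moved this list between -0.07, with library III of 12 h out, and 0.16, with library II of 12 h out. Of the 32 lower genes, 0 were called higher and 1 lower (3.12% against 1.06% of all genes). Their median was -0.24, with 0.01 on lane 6 and -0.38 on lane 7. It was -0.06, 0.18 and -0.59 in the 24 h libraries and 0.02, -0.06 and 0.11 in the 12 h libraries, which overlapped too. Without library III of 24 h that median was -0.03.

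The genes that changed with time in the bottles but without the drug are those called in the 48 h mock against 0 h, 219 higher (0.922%) and 271 lower (1.14%). Of the 219, 8 were called higher at 24 h (3.65% against 2.00% of all genes) and 1 lower (0.457% against 1.06%). Their median log2 fold change was 0.20, with 0.18, 0.14 and 0.26 in the 24 h libraries and -0.04, -0.04 and 0.10 in the 12 h libraries. Of the 271, 27 were called lower at 24 h and 0 higher, which is 9.96% against 1.06% of all genes. Their median was -0.27, with -0.24, -0.20 and -0.42 in the 24 h libraries and 0.01, 0.02 and -0.06 in the 12 h libraries. In both lists the 3 libraries of 24 h lay outside the range of 12 h, on the side to which the list moved between 0 h and the mock. By lane the medians were 0.35 on lane 6 and 0.12 on lane 7 for the 219 genes and -0.34 on lane 6 and -0.16 on lane 7 for the 271 genes. On lane 7 the libraries of the groups overlapped in both lists, with 0.04 and 0.17 at 24 h against -0.08, -0.03 and 0.12 at 12 h for the first, and -0.05 and -0.26 at 24 h against 0.05, 0.06 and -0.12 at 12 h for the other.

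Early response genes, called at 3 h or at 6 h against 0 h, share the 0 h libraries with each other and with the mock list. At 3 h 1966 genes were higher (8.28%) and 1760 lower (7.41%), and at 6 h 3342 were higher (14.1%) and 3285 lower (13.8%). In the step, 39 of the genes risen at 3 h were called higher (1.98% against 2.00% of all genes). Another 5 were called lower (0.254% against 1.06%). Of those risen at 6 h, 86 were called higher (2.57%) and 1 lower (0.0299%). Both shares higher were near that of all genes, and both shares lower were below the 1.06% of all genes. The list risen at 3 h had a median of 0.08, with 0.09 on lane 6 and 0.06 on lane 7, and the 24 h libraries, at 0.08, -0.01 and 0.18, overlapped the 12 h libraries, at 0.01, 0.02 and -0.02. Without library III of 24 h its median was 0.03. The list risen at 6 h had a median of 0.07, with -0.02 on lane 6 and 0.12 on lane 7, and the 24 h libraries, at 0.06, -0.13 and 0.25, overlapped the 12 h libraries, at -0.05, -0.02 and 0.07. Without library III of 24 h that median was -0.04, so its sign turned, and without library II of 24 h it was 0.15. Of the genes fallen at 3 h, 9 were called higher (0.511% against 2.00% of all genes) and 79 lower (4.49% against 1.06%). Their median was -0.17, with -0.16 on lane 6 and -0.13 on lane 7. In that list the 24 h libraries, at -0.15, -0.06 and -0.32, again lay below the 12 h libraries, at 0.003, -0.03 and 0.01. Of the genes fallen at 6 h, 16 were called higher (0.487%) and 121 lower (3.68%). Their median was -0.19, with -0.11 on lane 6 and -0.23 on lane 7. In this list the 24 h libraries, at -0.11, 0.01 and -0.42, overlapped the 12 h libraries, at 0.08, 0.04 and -0.13. Without library III of 24 h the medians of the lists fallen at 3 h and at 6 h were -0.12 and -0.08.

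Read from the other side, the shares of the called genes that stood in each list were as follows. Of the 251 fallen genes, 48.2% were in the list fallen at 6 h, which holds 13.8% of all genes, 31.5% in that fallen at 3 h, which holds 7.41% of all genes, and 10.8% in that fallen in the mock, which holds 1.14%. Of the 474 risen genes, 18.1% were in the list risen at 6 h, which holds 14.1% of all genes, 8.23% in that risen at 3 h, which holds 8.28% of all genes, and 1.69% in that risen in the mock, which holds 0.922%. In the fallen genes, the median of the log2 fold change was -0.41 at 6 h against 0 h, -0.29 at 3 h against 0 h and -0.27 in the 48 h mock against 0 h.

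**Figure D5:**
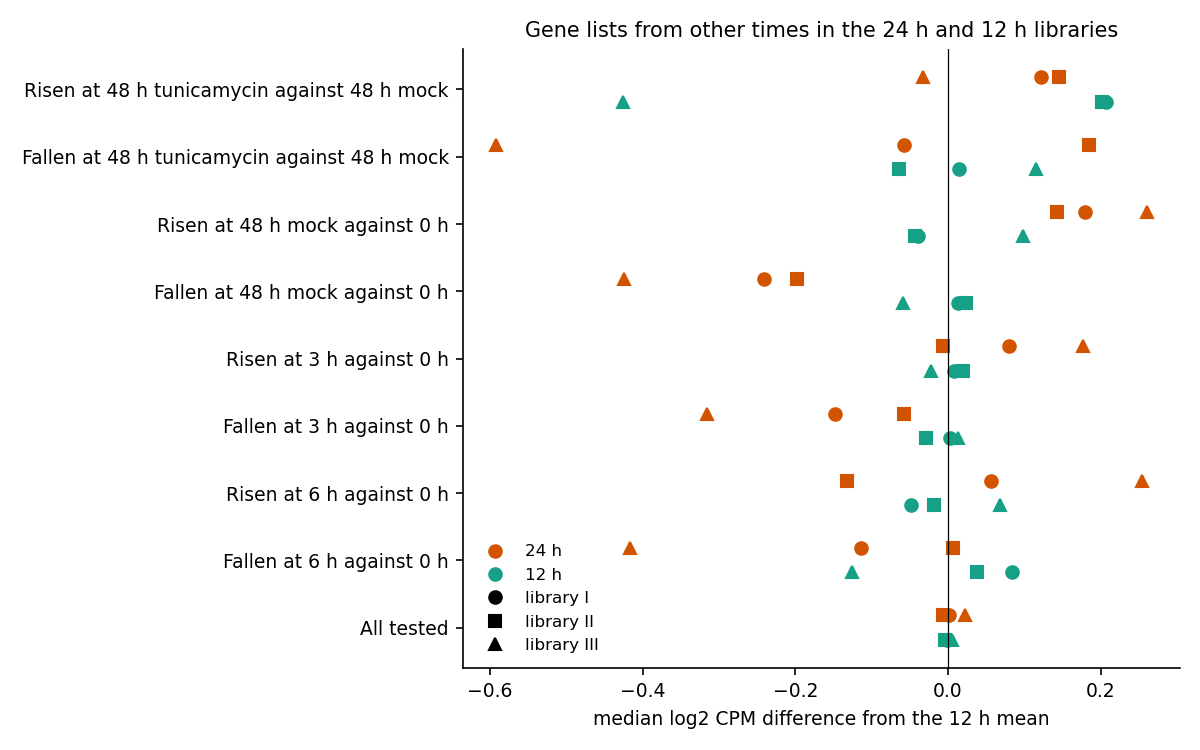
Median log2 difference from the 12 h mean of each list of genes called in other comparisons, with 1 point for each library of 24 h and 12 h. The 24 h libraries lie apart from the 12 h libraries in both lists of the mock against 0 h and in the list fallen at 3 h, and overlap them in the other lists.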

How the data were processed

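RNA from maize roots was measured in 8 groups of 3 libraries, prepared with TruSeq and sequenced from both ends. The authors deposited raw read counts per gene for 24 libraries and RPKM values per lane sample; STAR, featureCounts and edgeR are named without versions in the submitters' processing notes. The genome build, the annotation and any use of strand in counting were not given in the sources used here, so overlapping genes and near-identical copies are uncertain. Per the labels, the design has biological replicates run on 2 lanes, and p-values measure the spread between libraries. Libraries I, II and III stood at -60.0, -61.3 and -24.5 on the first principal component of log2 CPM at 0 h. At 12 h they stood at -51.2, -45.4 and 16.7, and in the 48 h mock at -20.8, -21.7 and 53.1. At 3 h they stood at -15.5, -13.9 and 16.4, at 6 h at 40.8, 40.2 and 31.5, and at 36 h at 16.9, 16.3 and 41.5. In these groups I and II lay close and III apart, unlike 24 h (-32.0, -74.0 and 28.1) and 48 h tunicamycin (30.0, 42.9 and 45.9). The p-values, whose spread comes from all groups, take I and II as independent. This was not tested, and a setting below sums them.

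The deposited RPKM, taken with the counts, gave back the reads of each lane and the length of each gene, with 100% of lane values whole to within 0.001 reads and a difference of 0 between summed lanes and deposited counts. Counts were tested with edgeR 4.0.16 (R 4.3.3), TMM scaling and the quasi-likelihood test, with all 24 libraries in 1 model and Benjamini-Hochberg adjustment. The low-count filter removed 0 genes, and a call needed an adjusted p below 0.05. Steps were tested on simulated data, drawn independently for each library with no difference between lanes. For 24 h against 12 h, 14% of simulated 1.5-fold changes, 58% of 2-fold, 94% of 4-fold and 100% of 8-fold changes were called. Among the unchanged genes 8 were called. Many changes below 2-fold would thus be missed. Log2 CPM used a prior count of 2. DESeq2 1.42.0 was an alternative. Each standard error was taken as the fold change over the square root of the F statistic. Every gene listed has at least 152 reads in all, so genes with fewer reads are not covered. The members and lists were chosen with earlier results of these data known. Named genes are the 2 largest rises and falls among called genes with no overlap between groups and a mean of at least 5 CPM.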

Additional observations from a re-analysis of the deposited data

How the results depend on the processing

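The counts of genes higher and lower at 24 h (474 and 251) depended on the test, the libraries and the lanes. They became 1025 and 758 with DESeq2's Wald test, 0 and 0 with only the compared groups fitted, and 181 and 35 with a 2-fold minimum. Summing libraries I and II gave 0 and 0 (1768 at an unadjusted p below 0.05). Groups by sample title gave 2 and 35, with lane samples as units, so lanes of 1 library entered as separate replicates. By library name, that contrast set 6 h and 48 h tunicamycin against 3 h and 36 h, with no 24 h or 12 h library. On lane 6 only the counts were 4637 and 4973, and on lane 7 only 0 and 0. Leaving out 1 library at a time gave 1 to 1359 higher and 4 to 989 lower. The library number as a replicate block gave 640 higher and 411 lower. The numbers share no stated origin, and deviations of same-numbered 24 h and 12 h libraries correlated at 0.325, 0.054 and 0.484. Library III of 24 h correlated at -0.515 and -0.334 with libraries I and II of 12 h. With library III of 12 h, libraries I and II of 24 h correlated at -0.436 and -0.189. The III libraries thus shared a difference from the rest, for which the main model held no term. Libraries I and II did not match by number. Library I of 24 h correlated at 0.430 with library II of 12 h, and library II of 24 h at 0.283 with library I of 12 h. Chosen after seeing the data, leaving out library II of 24 h and library III of 12 h together gave 158 and 69, 24 h on lane 7 alone 0 and 0 (2598 at an unadjusted p below 0.05), and 24 h on lane 6 alone 4402 and 4803. The cause of these shifts was not tested. DESeq2 size factors gave 481 and 259, and library totals 525 and 195.

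The difference between the steps (0 genes) became 71 with DESeq2, 5855 on lane 6 only and 5291 with 24 h on lane 6 alone. It became 10 without both libraries that stood apart, and 0 to 47 when 1 library was left out. By title it was 2813, with lane samples as units and other libraries in the contrast. The lane difference (11217 genes) became 11221 with DESeq2 size factors and 7283 with no library term. Of 22 settings each, Zm00001d035664 kept its call in 14, Zm00001d024324 in 11, Zm00001d012326 in 13 and Zm00001d042209 in 14. These counts include the settings that changed only the low-count filter, which gave the main values again and could not drop a call. They also include the setting by title, whose contrast held no library of 24 h or 12 h. The fold change of Zm00001d024324 changed sign only in that setting, at -1.03. Depth limits library II of 24 h most, at 7701856 reads, and the lane 6 sample of library III, at 2020493 reads.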
